A study of Mus musculus with 4 samples.

Results

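In all, 5 genes were followed across 4 single-cell RNA libraries of the mouse digit, out of 32285 genes in the count matrices. They were Myoc, Pcolce2, Mamdc2, Stmn2 and Ckb, taken by symbol, and all 5 were found. They had been picked because earlier results on these same libraries placed them high in fibroblasts late after amputation or, for Mamdc2, in macrophages, so the contrasts of late libraries with the unamputated one are given here as description. The tissue was the middle phalanx (P2), a level of the digit that scars after amputation and does not regrow. The mice were wild-type FVB/NJ animals aged 8 weeks, and the labels of these 4 libraries name no transgene and no viral vector. One library came from unamputated digits and 1 each from digits collected 12, 17 and 28 days post-amputation (dpa). Each library pooled animals, so each group held 1 library, differences have no replicate check and no p-value is given.

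The products of Myoc, Pcolce2 and Mamdc2 act outside the cell. Myocilin, the product of Myoc, is a secreted protein with an olfactomedin domain, known from the trabecular meshwork of the eye and found around nerves. Pcolce2 is a procollagen C-endopeptidase enhancer, a secreted protein that speeds the removal of the C-terminal propeptide of fibrillar procollagens by BMP1-type proteases. Mamdc2 is a secreted protein built of MAM domains. The other two products work in the cytoplasm. Stathmin-2, from Stmn2, is a membrane-anchored tubulin-binding protein best known from growing axons, and Ckb is the brain-type cytosolic creatine kinase, which passes phosphate between ATP and creatine.

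The libraries held 92313847 to 197140774 unique molecular identifiers (UMIs, counted molecules) over 8813 to 16045 barcodes. After filtering, 10399, 6510, 7919 and 10119 cells remained in the unamputated, 12, 17 and 28 dpa libraries, with median depths of 11600, 9543.5, 8501 and 6657 UMIs. Libraries shared 19 to 87 barcodes pairwise. The labels describe pools of both sexes, but the 12 dpa library held 3530 female-called and 0 male-called cells, and 0 of 6510 allows a share of male-called cells of up to 0.0461%, where 47.0% to 77.8% of the cells of the other 3 libraries were male-called. The unamputated library held 8088 male-called cells and 1 female-called cell, and the 17 and 28 dpa libraries held no female-called cell. Each comparison of 12 dpa with the unamputated library is therefore also one of sex, and the 2 cannot be told apart. Fibroblast-like cells were 3 joint clusters with 781, 683, 1478 and 2199 cells in the 4 libraries, found without using the 5 genes. All 10 fibroblast markers had UMIs in this class in every library. The subtypes were a cluster led by C4b and Gdf10, an adventitial-like cluster with Cd55, Clec3b and Mfap5 among its leading genes, and a cluster led by Tmem132c and Prss35, called here the Prss35 and Spock3 subtype. The makeup of the class differed: the Prss35 and Spock3 subtype was 55.8% of fibroblast-like cells at 12 dpa and 0.591% at 28 dpa, the C4b and Gdf10 subtype had 21 cells at 12 dpa, and the adventitial-like subtype made up 73.5% at 28 dpa. These shares rest on the clustering: in 4 of 6 other clusterings no fibroblast-like cluster had Prss35 among its leading genes, and the class then held 242 to 425 cells at 12 dpa.

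Promoter sequences were at hand for 3 of the 5 genes, which all stood higher in fibroblast-like cells at 17 and at 28 dpa than in the unamputated library, so the 150 bases before their RefSeq start sites (GRCm38.p6) are printed 5′ to 3′ on the strand of the gene. Capitals mark matches to the TATA box TATAAA, the CAAT box (letters CCAAT) or the GC box GGGCGG on either strand. Myoc lies on the plus strand of chromosome 1 at 162639155 to 162649693 (GENCODE M21, GRCm38), and its upstream bases span chr1:162639000-162639149.
Myoc: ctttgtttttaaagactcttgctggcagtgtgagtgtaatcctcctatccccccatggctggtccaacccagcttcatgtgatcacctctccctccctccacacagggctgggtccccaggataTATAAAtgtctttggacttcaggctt
Ckb lies on the minus strand of chromosome 12 at 111669361 to 111672338, and its upstream bases span chr12:111672339-111672488.
Ckb: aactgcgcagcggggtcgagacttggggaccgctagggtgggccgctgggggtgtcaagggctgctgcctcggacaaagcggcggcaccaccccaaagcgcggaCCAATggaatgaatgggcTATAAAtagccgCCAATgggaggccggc
Pcolce2 lies on the plus strand of chromosome 9 at 95637601 to 95698096, and its upstream bases span chr9:95637478-95637627, of which the last ones overlap the gene model of GENCODE M21.
Pcolce2: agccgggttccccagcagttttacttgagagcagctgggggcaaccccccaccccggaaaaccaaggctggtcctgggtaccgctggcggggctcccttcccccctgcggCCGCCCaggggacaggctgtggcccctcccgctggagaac
The Myoc window held 1 TATAAA starting 26 bases before the start site. The Ckb window held 1 TATAAA starting 28 bases before it and 2 CCAAT boxes starting 46 and 16 bases before it. The Pcolce2 window held 1 GC box, GGGCGG, on the opposite strand, where the printed strand reads CCGCCC. Of 32851 promoters cut to the same length, 7.57% held TATAAA, 24.5% held CCAAT and 28.6% held GGGCGG. No match was found in the 3 windows to TGANTCA (the AP-1 site, in 4.24% of promoters), CACGTG (an E box, in 4.30%) or the palindromic glucocorticoid response element (in 2 of 32851). The 3 windows shared no motif among those searched, apart from TATAAA in Myoc and Ckb. Stmn2 (chromosome 3, 8509360 to 8561606, plus strand) and Mamdc2 (chromosome 19, 23302609 to 23448442, minus strand) are named without a promoter.

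Myoc, Stmn2, Ckb and Pcolce2 were higher in fibroblast-like cells at 28 dpa than in the unamputated library, by 5.75-fold to 10.5-fold, and Mamdc2 was 1.56-fold higher. Levels are counts per 1000000 UMIs of the class (CPM), from 3′ tags and so not scaled by gene length, and ranges in parentheses are 95% intervals of counting error alone. Myoc was at 14.0 CPM in the unamputated library, 10.3 at 12 dpa, 92.8 at 17 dpa and 130.7 at 28 dpa, so the 2 later libraries stood apart from the 2 earlier ones. Pcolce2 was at 75.9, 39.0, 259.5 and 543.3 CPM across these libraries, lowest at 12 dpa and higher at 28 than at 17 dpa. Mamdc2 was at 31.1, 53.3, 46.5 and 48.5 CPM, and the intervals of the 3 libraries after amputation overlapped. Stmn2 was at 18.2, 20.3, 19.6 and 191.1 CPM, so that over the class 28 dpa alone was high. Ckb was at 47.2, 59.6, 98.2 and 271.3 CPM, in the order of days after amputation.

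The fold at 28 dpa over the unamputated library was 9.31 (8.11 to 10.7) for Myoc, 10.5 (9.28 to 11.9) for Stmn2, 5.75 (5.33 to 6.22) for Ckb, 7.16 (6.74 to 7.61) for Pcolce2 and 1.56 (1.40 to 1.74) for Mamdc2. At 17 dpa it was 6.61 (5.74 to 7.65) for Myoc, 3.42 (3.21 to 3.65) for Pcolce2 and 2.08 (1.91 to 2.27) for Ckb, but 1.07 (0.918 to 1.26) for Stmn2, at 0.353-fold (0.267 to 0.464) in C4b and Gdf10 cells and 1.66-fold (1.31 to 2.10) in adventitial-like cells. These 2 values rest on few cells, since 3 to 5 cells held 50% of the Stmn2 UMIs in each subtype of the 2 libraries, and the share of adventitial-like cells with a Stmn2 UMI was 7.43% in the unamputated library and 5.17% at 17 dpa. Between 17 and 28 dpa, Stmn2 differed 9.75-fold (8.77 to 10.9) and Myoc 1.41-fold (1.33 to 1.49), so the 2 genes were high from different libraries on. Past a 2-fold higher level stood 0 members at 12 dpa, 3 at 17 dpa and 4 at 28 dpa, where 1.04%, 0.566% and 3.46% of all genes of at least 20 CPM did. At 12 dpa Myoc and at 17 dpa Stmn2 were under 20 CPM in both libraries compared, so 4 members entered there. The count at 12 dpa was 1 or 2 in 6 of 16 alternative settings. In C4b and Gdf10 cells, 3 of the 5 were past 2-fold higher at 28 dpa (2.52% of all genes), and in adventitial-like cells 4 of 5 (2.87%). The third gene at 17 dpa was Ckb at 2.08-fold, which stayed past 2-fold in 8 of 19 alternative settings and was at 1.76-fold with the subtypes held at their unamputated proportions, 1.37-fold (1.17 to 1.61) in C4b and Gdf10 cells and 1.92-fold (1.73 to 2.14) in adventitial-like cells. These shares are context only, since the members were chosen on such values. Among 7023 genes at 28 dpa, Stmn2 ranked 4 from the top by log2 ratio, Myoc 6, Pcolce2 12, Ckb 15 and Mamdc2 839. Among 6891 genes at 17 dpa, Myoc ranked 1, Pcolce2 4 and Ckb 36. The median log2 ratio of all genes at 28 dpa was -0.13.

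**Figure D1:**
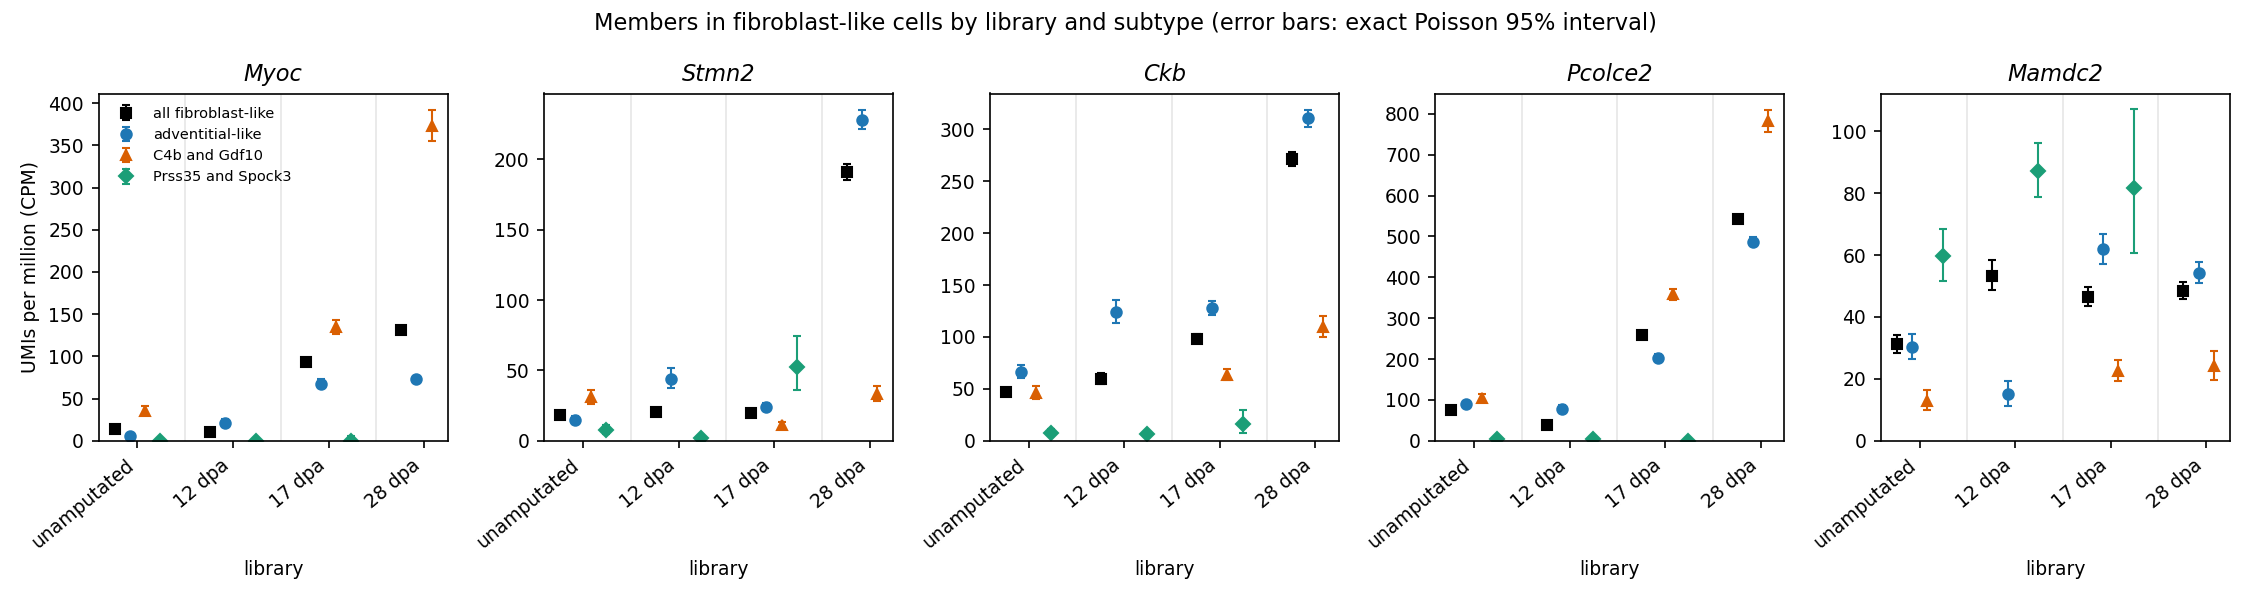
Level of each gene (CPM, linear axis from 0) in the 4 libraries for all fibroblast-like cells (black squares) and for each subtype with at least 50 cells, with exact Poisson 95% intervals as error bars. Myoc and Pcolce2 stand highest in the C4b and Gdf10 subtype at 28 dpa (373.3 and 782.7 CPM), Stmn2 and Ckb in the adventitial-like subtype (228.1 and 310.6 CPM), and Mamdc2 in the Prss35 and Spock3 subtype of the libraries that hold it.

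In male-called cells, the levels at 28 dpa were 109.7 CPM for Myoc, 218.5 for Stmn2, 287.0 for Ckb, 519.3 for Pcolce2 and 52.1 for Mamdc2, against 13.1, 17.5, 48.0, 74.1 and 31.2 CPM in male-called cells of the unamputated library. The order of the libraries at 17 and 28 dpa was therefore the same within male cells for the 4 genes that were high. With the C4b and Gdf10 and the adventitial-like subtypes alone, held at their unamputated proportions, the fold at 28 dpa was 10.9 for Myoc, 7.0 for Stmn2, 3.92 for Ckb, 6.35 for Pcolce2 and 1.81 for Mamdc2. The Prss35 and Spock3 subtype, with 13 cells at 28 dpa, was left out of this mix. Proportions of finer clusters within each subtype were not held. At 12 dpa, the level of 2 genes was on opposite sides of the unamputated one in the class and in its adventitial-like cells. Myoc was 0.732-fold (0.565 to 0.941) the unamputated level over the class, a direction that turned in 7 of 16 alternative settings, and 3.61-fold (2.45 to 5.41) in adventitial-like cells alone. Few cells carried it, since 4 cells of the class and 3 adventitial-like cells held 50% of its 12 dpa UMIs, and 4.98% of adventitial-like cells had a Myoc UMI at 12 dpa against 4.33% in the unamputated library. At 12 dpa Mamdc2 was 1.71-fold (1.51 to 1.95) over the class and 0.495-fold (0.363 to 0.665) in adventitial-like cells.

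Myoc was found in the C4b and Gdf10 subtype and in adventitial-like cells, and not in the Prss35 and Spock3 subtype. In C4b and Gdf10 cells it was at 35.6 CPM (30.6 to 41.3) in the unamputated library, 135.0 (126.9 to 143.5) at 17 dpa and 373.3 (355.4 to 391.8) at 28 dpa, higher in each later library. The finer clusters of this type, described below, also differed in size between these libraries. In adventitial-like cells it was at 5.75, 20.8, 67.7 and 73.1 CPM in the unamputated, 12, 17 and 28 dpa libraries, and the intervals at 17 and 28 dpa (62.9 to 72.9 and 69.2 to 77.1) overlapped. The Prss35 and Spock3 subtype had 0 Myoc UMIs in 177, 381 and 78 cells of the unamputated, 12 and 17 dpa libraries, which allows up to 0.886, 0.650 and 4.80 CPM.

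The Myoc molecules sat in few cells. At 17 dpa, 14 of 1478 fibroblast-like cells held 50% of its 1757 UMIs, and 1 cell held 127. At 28 dpa, 46 of 2199 cells held 50% of 2984 UMIs. Cells with at least 10 Myoc UMIs numbered 6 of 781 in the unamputated library, 4 of 683 at 12 dpa, 43 of 1478 at 17 dpa and 88 of 2199 at 28 dpa, or 0.768%, 0.586%, 2.91% and 4.0%. Those 88 cells had a median depth of 8309.5 UMIs, against 9145 for all fibroblast-like cells of that library, so they were not the deeper cells. Intervals that count molecules as independent are therefore too narrow for Myoc, and likewise for Stmn2. Without its richest cell, the 17 dpa level was 86.2 CPM in place of 92.8.

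Pcolce2 was widespread by comparison. It was at 104.1, 358.2 and 782.7 CPM in C4b and Gdf10 cells of the unamputated, 17 and 28 dpa libraries and at 90.1, 77.6, 203.5 and 487.5 CPM in adventitial-like cells of the 4 libraries. Both subtypes were highest at 28 dpa, by 7.52-fold (6.85 to 8.27) and 5.41-fold (4.99 to 5.87) over the unamputated library. The Prss35 and Spock3 subtype was at 4.72, 3.90 and 0 CPM in the unamputated, 12 and 17 dpa libraries. After each cell was thinned to 2000 UMIs, Pcolce2 was detected in 9.61%, 5.23%, 26.8% and 48.4% of fibroblast-like cells in the 4 libraries, and in 29.6%, 14.6%, 50.3% and 67.5% before thinning. In neutrophil-like cells, set as a class that should lack the gene, the thinned shares were 0%, 0%, 0.658% and 0%, the last over 11 cells with an upper bound of 28.5%. Median depths were 19084, 11677, 12339 and 9145 UMIs in fibroblast-like and 3122.5, 1762, 2447 and 1422 in neutrophil-like cells.

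Mamdc2 was distributed differently from the other 4 genes. The Prss35 and Spock3 subtype, which had little or none of Myoc and Pcolce2, had 59.6, 87.1 and 81.6 CPM of Mamdc2 in the unamputated, 12 and 17 dpa libraries and held 87.0% of the Mamdc2 UMIs of the class at 12 dpa. C4b and Gdf10 cells had 12.8, 22.4 and 24.1 CPM in the unamputated, 17 and 28 dpa libraries. Adventitial-like cells had 30.3, 14.99, 61.8 and 54.1 CPM in the 4 libraries. Over the class, its 28 dpa level was under 2-fold over the unamputated library and not above the 12 dpa level. In adventitial-like cells alone the order was the other way, with the 28 dpa level above the 12 dpa one and no overlap of their intervals (50.8 to 57.6 and 11.4 to 19.4). The 28 dpa level of the class passed 2-fold in 3 of 19 alternative settings.

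Stmn2 at 28 dpa lay mainly in adventitial-like cells. In these cells it was at 14.4, 44.2, 23.9 and 228.1 CPM in the unamputated, 12, 17 and 28 dpa libraries, a 15.8-fold (12.99 to 19.4) difference between the first and the last. C4b and Gdf10 cells had 31.0, 10.9 and 33.2 CPM in the unamputated, 17 and 28 dpa libraries, with overlapping intervals in the first and the last (26.3 to 36.3 and 28.0 to 39.1). The Prss35 and Spock3 subtype had 7.67, 1.73 and 52.8 CPM in the unamputated, 12 and 17 dpa libraries, the last over 78 cells. At 28 dpa, 96.1% of the Stmn2 UMIs of fibroblast-like cells lay in adventitial-like cells, which were 73.5% of the cells and 80.5% of the UMIs. Cells with at least 10 Stmn2 UMIs numbered 12 of 781, 5 of 683, 11 of 1478 and 147 of 2199 in the 4 libraries, and in the 3 earlier ones 7, 7 and 9 cells held 50% of the molecules. Thinned detection was 2.21%, 2.39%, 2.21% and 13.04% of fibroblast-like cells.

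Stmn2 is a gene of neurons and was also high in endothelial-like cells here, so the markers of both were read beside it. Endothelial markers summed to 8.15, 29.8, 7.45 and 12.7 CPM in fibroblast-like cells, with all 7 detected in each library. In the fibroblast-like cells with no UMI of those 7 markers, Stmn2 was at 20.1, 19.4, 17.7 and 194.2 CPM, against 191.1 CPM over all fibroblast-like cells of 28 dpa. The part of endothelial RNA in the Stmn2 level was not tested. Neuron markers summed to 2.59, 8.08, 9.56 and 19.0 CPM. In the 147 cells of 28 dpa with at least 10 Stmn2 UMIs, Tubb3, a neuronal beta-tubulin, was at 45.6 CPM (37.8 to 54.7), against 7.11 (5.85 to 8.55) in the 1699 cells with none. Of the 8 neuron markers, 5, namely Nefl, Nefm, Snap25, Elavl4 and Isl1, had 0 UMIs in those 147 cells, Prph had 2 and Uchl1 15. Fibroblast markers summed to 32194 CPM in the 147 cells and 41758 in those with none, perineurial markers to 413.8 and 196.5 CPM, of which Crabp2 made 393.7 and 179.9, and macrophage markers to 203.8 and 115.2 CPM. Tenocyte markers were lower, at 179.1 and 711.8 CPM, as were joint lining markers, at 545.0 and 882.6 CPM, and the part of these other markers in the Stmn2 level was not tested. In cells with no UMI of any neuron marker, Stmn2 was at 17.9, 19.6, 12.1 and 152.6 CPM in the 4 libraries, so that the 28 dpa library stayed highest and the 17 dpa level was lower than over all cells (19.6). The 147 cells had a median depth of 16581 UMIs, against 9145 in the class, and the part of depth in this choice of cells was not tested.

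Before thinning, Ckb was detected in 37.5%, 25.2%, 48.8% and 67.0% of fibroblast-like cells of the 4 libraries. It was at 66.6, 124.1, 128.0 and 310.6 CPM in adventitial-like cells of the 4 libraries, and its 12 and 17 dpa intervals (113.2 to 135.8 and 121.3 to 135.0) overlapped. C4b and Gdf10 cells had 46.4, 63.7 and 109.9 CPM in the unamputated, 17 and 28 dpa libraries, a 2.37-fold (2.02 to 2.79) difference at 28 dpa against 4.66-fold (4.25 to 5.13) in adventitial-like cells. The Prss35 and Spock3 subtype had 7.38, 6.93 and 16.0 CPM in the unamputated, 12 and 17 dpa libraries. Thinned detection was 7.27%, 6.73%, 16.5% and 31.8% of fibroblast-like cells. In the C4b and Gdf10 subtype, no cell held more than 12 Ckb UMIs in the unamputated library, 5 at 17 dpa or 6 at 28 dpa.

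**Figure D2:**
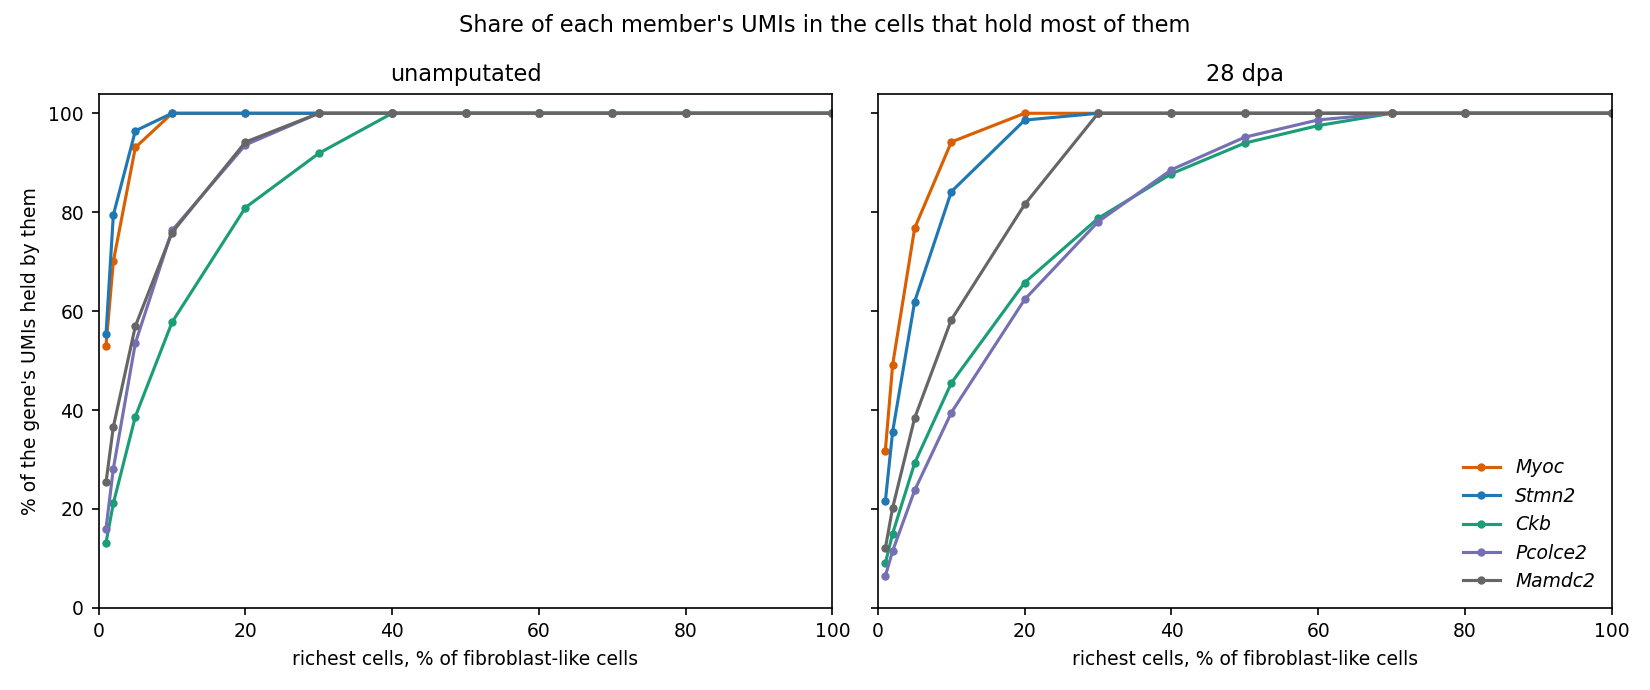
Share of each gene's UMIs (vertical axis, %) held by the cells richest in that gene (horizontal axis, % of fibroblast-like cells), in the unamputated library (left) and at 28 dpa (right). At 28 dpa the richest 10% of cells held 94.2% of Myoc, 84.2% of Stmn2, 58.3% of Mamdc2, 45.5% of Ckb and 39.5% of Pcolce2 UMIs.

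Finer clusters of the stromal cells separated Myoc from Stmn2. Of these 19 sub-clusters, the one led by Prg4 and Zfp385b had 443.7 CPM (417.8 to 470.8) of Myoc and 27.2 (21.1 to 34.6) of Stmn2 at 28 dpa. The one led by Anxa8 and Sbsn had the reverse, 8.24 CPM of Myoc and 292.6 (281.8 to 303.8) of Stmn2, with the highest Ckb of the sub-clusters at 28 dpa, 389.3 CPM. Another adventitial-like sub-cluster, led by Efemp1 and Pcsk6, had 61.7 CPM of Myoc, 241.2 of Stmn2 and 845.7 of Pcolce2. Of the 3 sub-clusters of C4b and Gdf10 type, those led by C3 and Icam1 and by C7 and Fmo2 had Myoc at 402.2 and 312.6 CPM and Stmn2 at 40.04 and 19.0 CPM. The third, led by Igf1 and Gm765, had 123.1 CPM (83.03 to 175.7) of Myoc and 49.2 (25.4 to 85.99) of Stmn2 at 28 dpa, in 31 cells. In the order C3, C7 and Igf1, these 3 held 41, 48 and 328 cells of the unamputated library and 272, 260 and 31 of 28 dpa. At 17 dpa their Myoc was at 187.9, 140.2 and 48.2 CPM. In the unamputated library the Igf1 one was at 17.8 CPM. The C3 and C7 ones had 75 and 8 Myoc UMIs there, in 41 and 46 fibroblast-like cells. The part of these sizes in the Myoc level of the subtype was not tested. Pcolce2 was at 1024.7 CPM in the Prg4 sub-cluster, 970.6 in the C3 one and 243.9 in the Anxa8 one. The Prg4 sub-cluster held 296 cells of 28 dpa and 4, 1 and 36 of the unamputated, 12 and 17 dpa libraries, and the Anxa8 one 630 against 7, 16 and 85. For sub-clusters so unevenly filled, a cell type and the 28 dpa library itself cannot be told apart. At 17 dpa, the Anxa8 sub-cluster already had 85.4 CPM (71.1 to 101.7) of Stmn2 and 277.2 of Ckb, in 85 cells, and the Efemp1 one had 137.0 CPM of Myoc and 10.5 of Stmn2, in 90 cells. The Efemp1 one held 52 Stmn2 UMIs in 32 cells of the unamputated library and 116 in 26 cells of 12 dpa. It held 15 at 17 dpa and 1181 in 440 cells at 28 dpa, so the 28 dpa library was not alone in holding Stmn2 there.

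**Figure D3:**
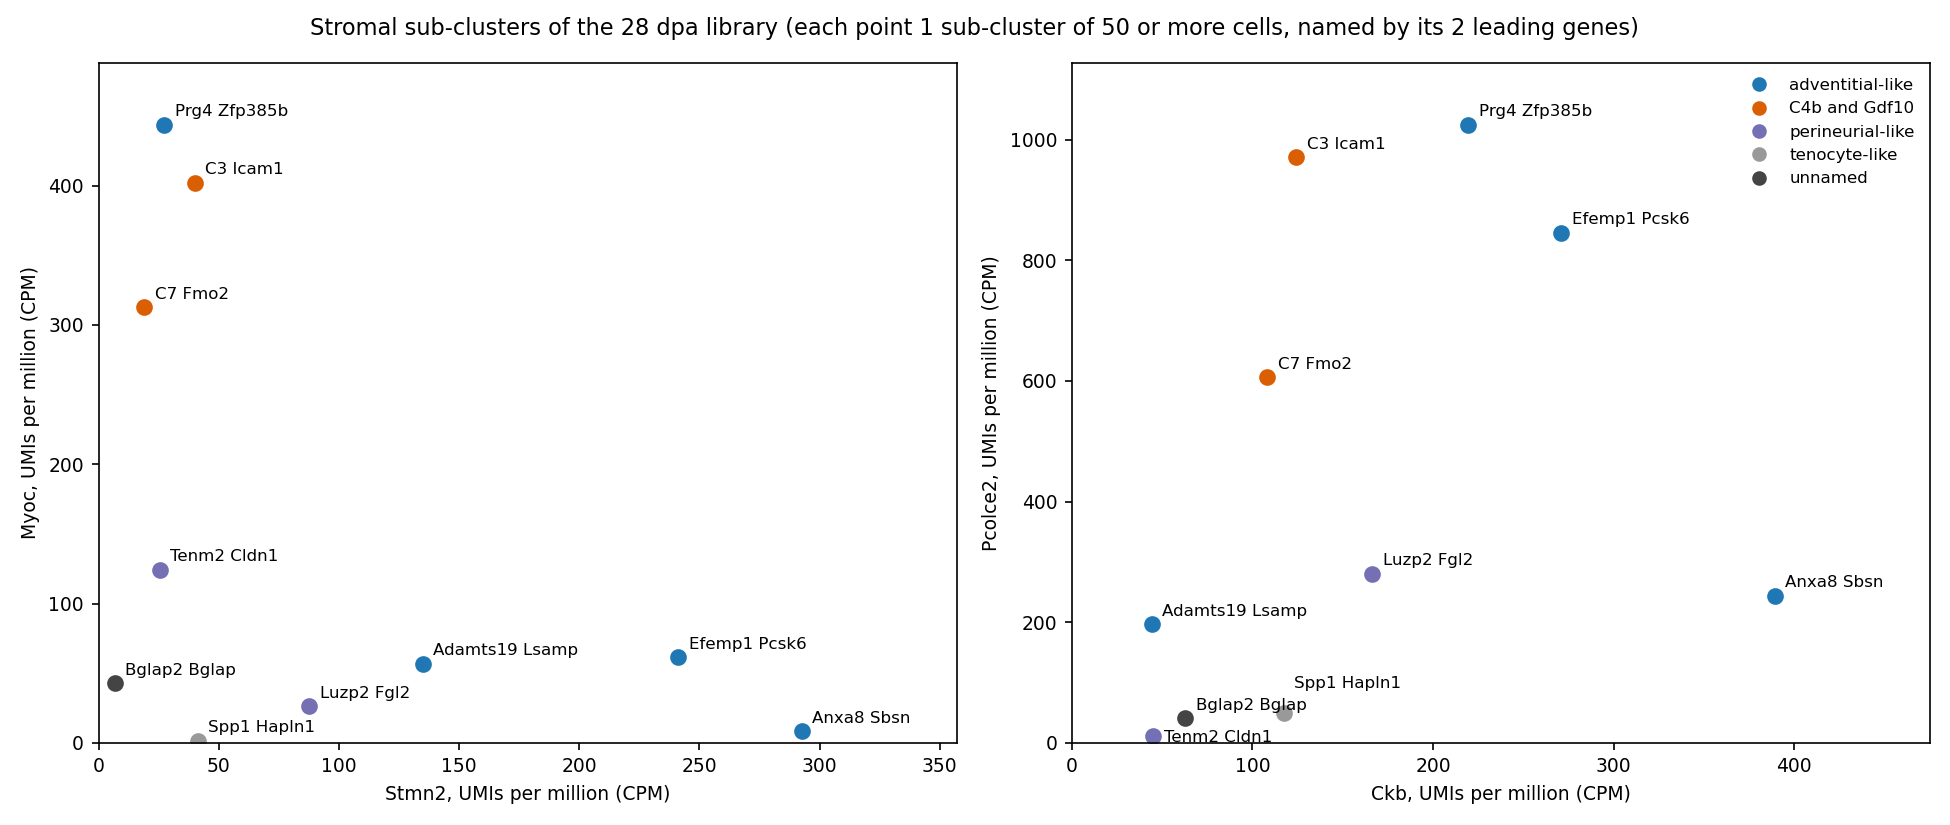
Stromal sub-clusters of the 28 dpa library with at least 50 cells, plotted by Stmn2 against Myoc (left) and Ckb against Pcolce2 (right), all axes in CPM, coloured by class and subtype and named by 2 leading genes. Sub-clusters with Myoc above 300 CPM lie at 40.04 CPM of Stmn2 or less, and those with Stmn2 above 100 CPM lie at 61.7 CPM of Myoc or less.

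Detection within single cells at equal depth is given next. Of fibroblast-like cells of 28 dpa thinned to 2000 UMIs, Pcolce2 was detected in 73.9% (67.8 to 79.4) of the 234 cells with a Myoc UMI and in 45.3% (43.1 to 47.6) of the 1921 without one. Stmn2 was detected in 6.41% (3.63 to 10.4) of cells with Myoc and in 13.8% (12.3 to 15.5) of those without. Ckb was detected in 39.9% (34.1 to 45.8) of the 281 cells with Stmn2 and in 30.6% (28.5 to 32.7) of the others. Both genes were detected more often in adventitial-like than in C4b and Gdf10 cells. The shares were 36.5% and 19.3% for Ckb and 16.2% and 3.57% for Stmn2, and the part of the subtypes in this pair was not tested. At 17 dpa, Pcolce2 was detected in 49.4% (38.2 to 60.6) of the 83 cells with Myoc and in 25.4% (23.1 to 27.8) of the rest. Mamdc2 was detected in 3.42% (1.49 to 6.63) of Myoc cells at 28 dpa and in 8.17% (6.99 to 9.49) of the rest. Among adventitial-like cells alone at 28 dpa, the values were 73.0% and 42.0% for Pcolce2 with and without Myoc, and 6.0% and 16.9% for Stmn2. Cells of 1 library are not replicates, and these shares describe these libraries.

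Across all cell classes, fibroblast-like cells held 69.6%, 66.4%, 81.1% and 91.0% of the Myoc UMIs of the 4 libraries and 67.6%, 55.3%, 87.8% and 94.1% of the Pcolce2 UMIs. For Myoc, fibroblast-like cells ranked first among classes with at least 50 cells at 12, 17 and 28 dpa, at 12 dpa with an interval that overlapped that of periosteal-like cells. The 28 perineurial-like cells of 12 dpa, too few for this order, were at 128.7 CPM (91.5 to 176.0). In the unamputated library, perineurial-like cells, which form the sheath around nerve fascicles, ranked above them at 41.0 CPM (31.6 to 52.4). Perineurial-like cells had 75.7 and 92.5 CPM at 17 and 28 dpa, and periosteal-like cells 2.78, 6.22, 16.3 and 36.7 CPM in the 4 libraries. For Pcolce2 too, perineurial-like cells were above fibroblast-like cells in the unamputated library (177.6 CPM), but lower at 17 and 28 dpa, at 114.6 and 99.0 CPM against 259.5 and 543.3. Tenocyte-like cells had 5.74, 7.17, 14.0 and 58.8 CPM of Pcolce2. Neutrophil-like cells had at most 3.67 CPM of Myoc and 7.35 of Pcolce2, both at 28 dpa.

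Perineurial-like cells came in 2 sub-clusters that differed in the same genes. The one led by Tenm2 and Cldn1 had 116.6 and 124.2 CPM of Myoc at 17 and 28 dpa, with 2.40 and 12.0 of Pcolce2 and 6.72 and 25.4 of Stmn2. Of its 205 cells at 28 dpa, 16 were fibroblast-like in the joint clustering and held 20 Stmn2 and 9 Pcolce2 UMIs. The 187 perineurial-like ones held 16 and 8, so its 28 dpa levels of these 2 genes are not those of perineurial-like cells alone. The one led by Luzp2 and Fgl2 had 30.1 and 26.3 CPM of Myoc, 238.5 and 280.3 of Pcolce2 and 96.8 and 87.6 of Stmn2. Their intervals did not overlap for Myoc, Pcolce2 or Stmn2 in either library. Mamdc2 was at 96.9 and 70.6 CPM in the first and 129.0 and 106.6 in the second.

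Stmn2 was highest in vascular endothelial-like cells in all 4 libraries, at 356.8, 516.3, 250.8 and 215.6 CPM. Their level at 28 dpa was 0.604-fold (0.557 to 0.655) that of the unamputated library, while that of fibroblast-like cells was 10.5-fold. At 28 dpa the 2 classes stood next to each other in the order of classes, at 215.6 (199.4 to 232.9) and 191.1 CPM (185.4 to 196.8), and adventitial-like cells at 228.1 CPM overlapped with endothelial-like cells. Endothelial-like cells held 88.0%, 85.8%, 54.3% and 11.9% of the Stmn2 UMIs of the libraries, and fibroblast-like cells 3.99%, 4.21%, 21.03% and 80.04%. Endothelial-like cells were 13.3% of cells in the unamputated library and 5.74% at 28 dpa, and fibroblast-like cells 7.51% and 21.7%. Over all cells together, Stmn2 at 28 dpa was 1.39-fold (1.34 to 1.44) above the unamputated library. Lymphatic endothelial-like cells had 160.0 and 149.0 CPM in the unamputated and 12 dpa libraries.

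**Figure D4:**
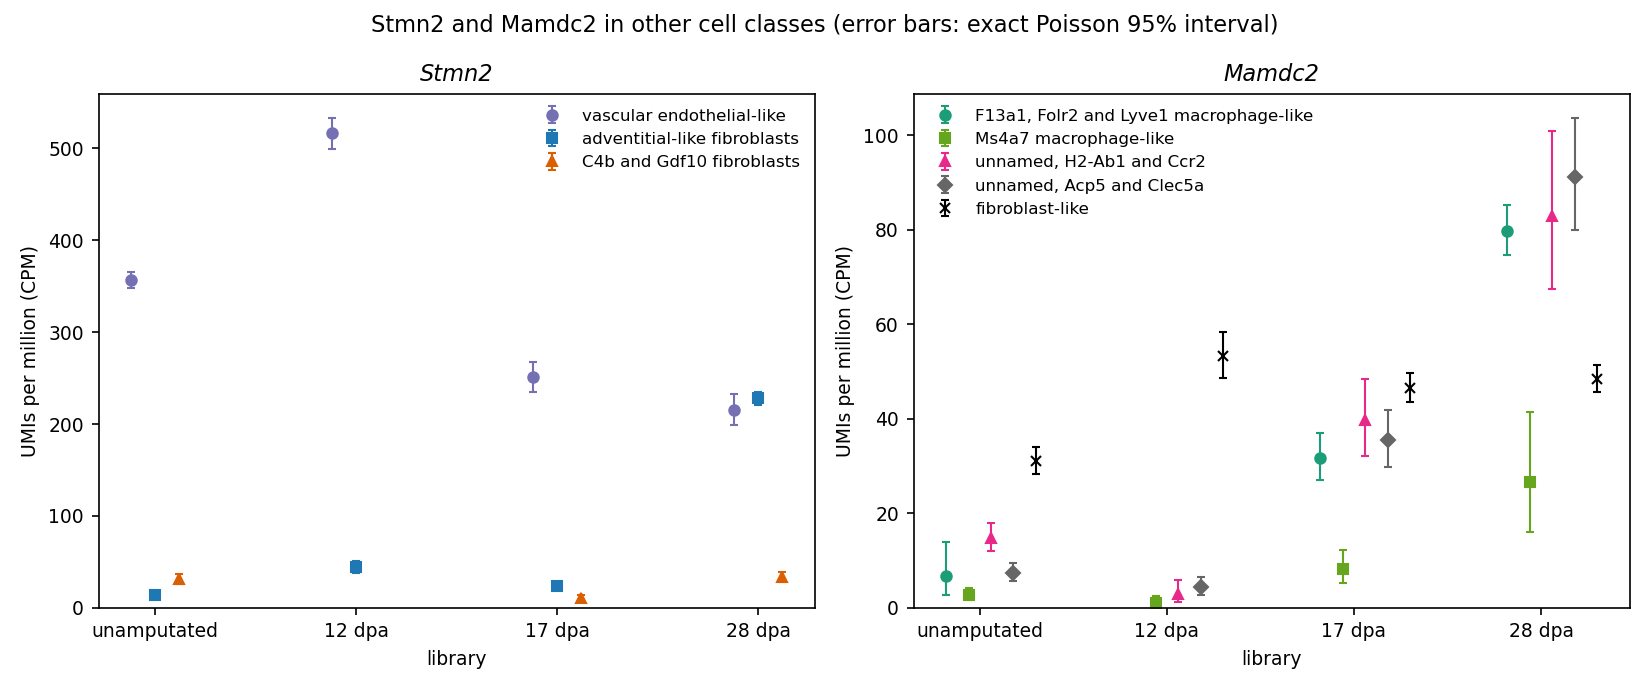
Stmn2 (left) and Mamdc2 (right) by library in CPM on linear axes from 0, for the named cell classes and clusters with at least 50 cells, with exact Poisson 95% intervals. Stmn2 in adventitial-like fibroblasts reaches the endothelial level only in the 28 dpa library, and Mamdc2 in the 4 myeloid clusters is highest at 28 dpa.

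Ckb was highest in smooth muscle-like cells among the named classes of every library, at 209.8, 174.7, 262.9 and 317.5 CPM, followed by Schwann-like cells at 142.5, 102.3, 151.5 and 294.3. At 28 dpa the intervals of these 2 classes overlapped, as did those of Schwann-like and fibroblast-like cells (271.3 CPM). Macrophage-like cells had 101.2, 77.9, 150.9 and 202.4 CPM. An unnamed myeloid cluster led by Acp5 and Atp6v0d2, genes of osteoclasts, exceeded all of these at 605.9, 356.8, 381.5 and 684.5 CPM. In vascular endothelial-like cells Ckb was at 5.62, 6.32, 6.81 and 14.0 CPM, against 1.75, 1.91, 6.19 and 7.35 CPM in neutrophil-like cells, with intervals that overlapped in the 3 libraries after amputation and not in the unamputated one. Among named classes, fibroblast-like cells ranked 6 in the unamputated library and 3 at 28 dpa.

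Mamdc2 was low in macrophage-like cells of the 2 earlier libraries and higher in the 2 later ones, at 3.28 CPM (2.26 to 4.6), 1.5 (0.604 to 3.09), 21.9 (19.0 to 25.1) and 77.3 (72.5 to 82.3). The 28 dpa level was 23.6-fold (16.7 to 34.5) the unamputated one, where 3.41% of all genes of at least 20 CPM in these cells were past 2-fold higher. The clusters that make up these cells also differed between libraries, since the one led by F13a1 and Folr2 had 88, 27, 520 and 1479 cells. Within that cluster, Mamdc2 was at 6.75, 31.8 and 79.8 CPM in the unamputated, 17 and 28 dpa libraries. The cluster led by Ms4a7 had 2.76, 0.989, 8.25 and 26.6 CPM in the 4 libraries. The unnamed myeloid clusters led by H2-Ab1 and by Acp5 had 14.8, 2.87, 39.7 and 82.9 CPM and 7.42, 4.35, 35.5 and 91.2 CPM. The 3 clusters with at least 50 cells at 12 dpa were lowest there, and all 4 were highest at 28 dpa. Fibroblast markers summed to 390.7, 473.0, 502.8 and 753.1 CPM in macrophage-like cells, mainly Gsn, against 29092 to 48218 CPM in fibroblast-like cells. Mamdc2 at 28 dpa was higher in macrophage-like than in fibroblast-like cells, at 77.3 against 48.5 CPM. In male-called macrophage-like cells it was at 2.98, 22.3 and 84.5 CPM in the unamputated, 17 and 28 dpa libraries.

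Elsewhere, Mamdc2 had no single leading class. Among named classes with at least 50 cells it was highest in perineurial-like cells of the unamputated library (116.7 CPM), in Schwann-like cells at 12 and 17 dpa (72.5 and 119.2 CPM) and in osteoblast-like cells at 28 dpa (89.1 CPM). At 17 dpa the interval of Schwann-like cells overlapped those of perineurial-like and osteoblast-like cells, at 109.6 and 109.5 CPM. The intervals of the first 4 classes at 28 dpa, osteoblast-like, perineurial-like, macrophage-like and Schwann-like, overlapped from one to the next.

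**Figure D5:**
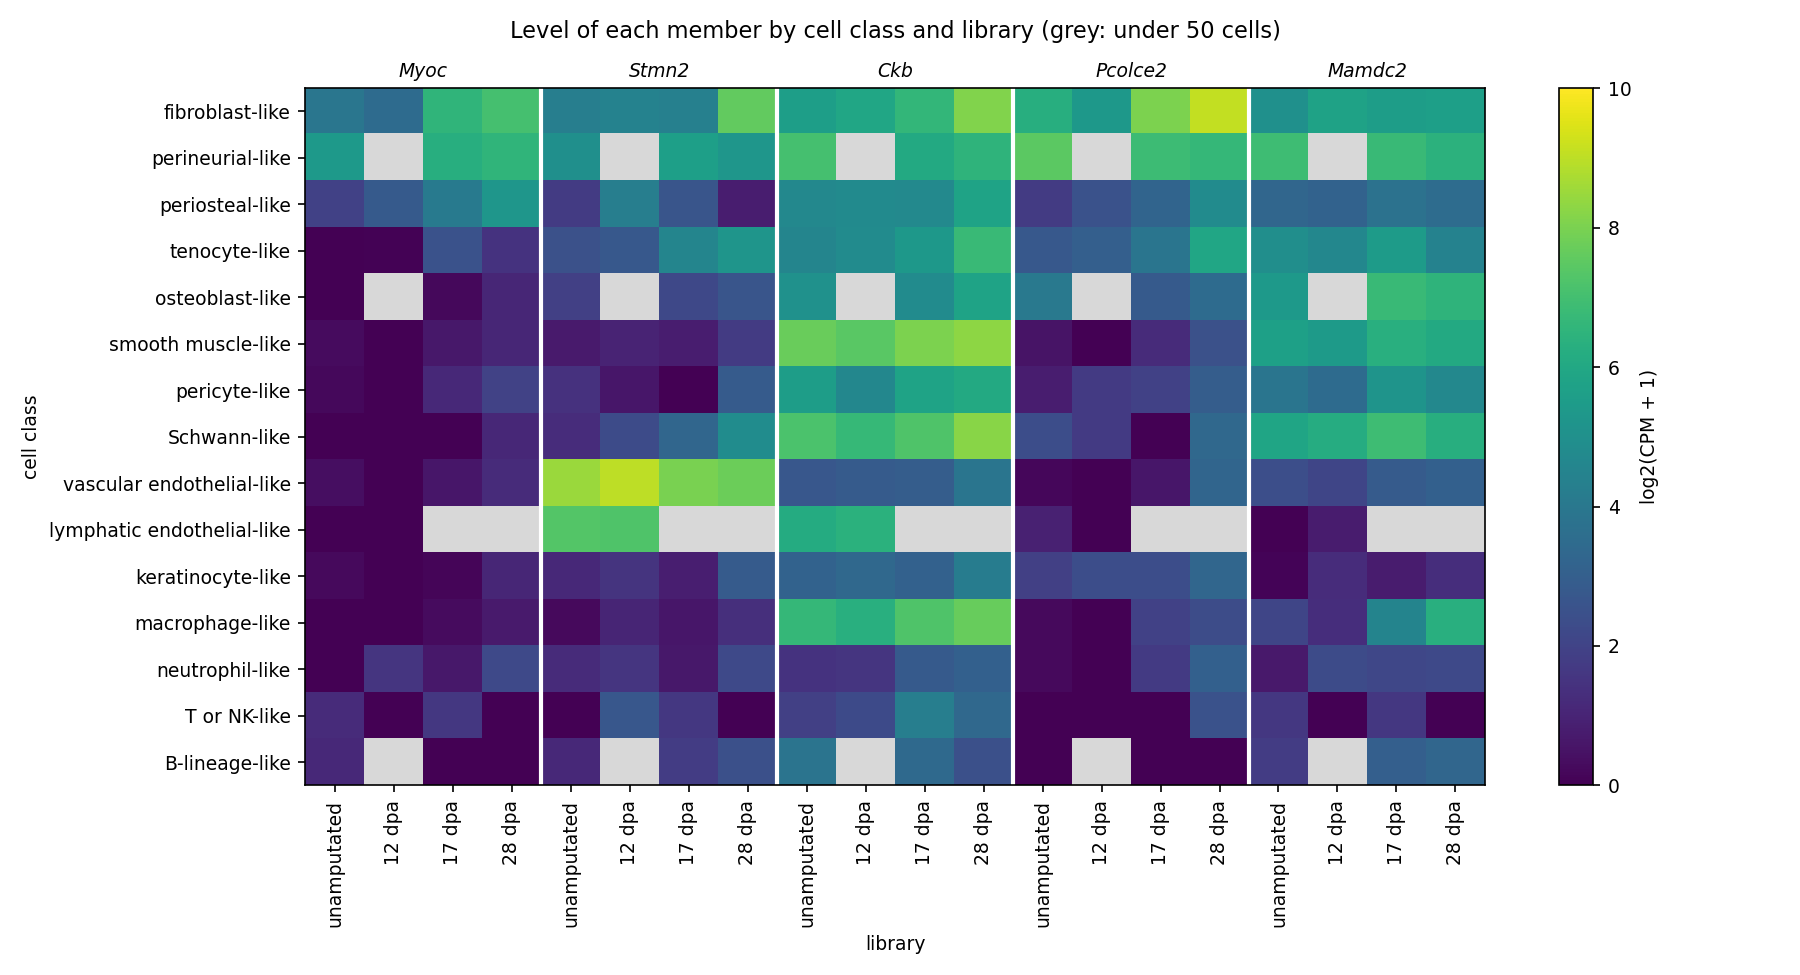
Level of each gene in every named cell class and library as log2(CPM + 1), with classes in rows and libraries in columns, and grey where a class had under 50 cells. Myoc and Pcolce2 are concentrated in the fibroblast-like and perineurial-like rows, Stmn2 in the endothelial rows and in fibroblast-like cells at 28 dpa, and Ckb and Mamdc2 are spread over several classes.

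Of 25 relatives of the 5 genes with at least 5 CPM in fibroblast-like cells of 28 dpa or the unamputated library, 1 was past 2-fold higher and 5 lower at 28 dpa, or 4% and 20%. Of all such genes, 3.29% were past 2-fold higher and 8.84% past 2-fold lower, with a median log2 ratio of -0.14. At 17 dpa, 1 of 25 was higher, Gldn, at 2.23-fold (1.98 to 2.50), and 3 were lower, Adgrl3, Stmn1 and Tll1, at 0.105-fold, 0.375-fold and 0.447-fold, where 0.725% and 2.39% of all genes were. At 12 dpa, 3 of 27 were higher, Adgrl3, Mdga2 and Ptprt, and 2 lower, Olfml2a and Stmn4, where 1.62% and 2.2% of all genes were. Adgrl3 was thus at 104.3, 221.9, 10.9 and 3.15 CPM in the 4 libraries, highest at 12 dpa and lowest at 28 dpa. Its level was highest in the Prss35 and Spock3 subtype, at 417.1, 407.2 and 158.4 CPM in the unamputated, 12 and 17 dpa libraries, and that subtype was most of the class at 12 dpa and 13 cells at 28 dpa. The subtype held 1413 of 1612 Adgrl3 UMIs of the class in the unamputated library and 1880 of 1922 at 12 dpa. It held 99 of 207 at 17 dpa and 15 of 72 at 28 dpa. In adventitial-like cells Adgrl3 was at 10.5, 9.99, 4.80 and 2.45 CPM in the 4 libraries. In C4b and Gdf10 cells it was at 25.1, 7.42 and 2.73 CPM in the unamputated, 17 and 28 dpa libraries, so it was also lower within these subtypes at 17 and 28 dpa. The part of the makeup of the class in the calls of the relatives, Adgrl3 among them, was not tested. Of 9 olfactomedin-domain genes of at least 5 CPM, 1 was past 2-fold higher and 2 lower at 28 dpa, with a median of -0.21. Olfml2a, a secreted relative of myocilin, was at 16.5 CPM in the unamputated library and 38.7 at 28 dpa, and Gldn, which binds axons at nodes of Ranvier, was at 26.0 and 38.4 CPM. Adgrl2 and Adgrl3, the latrophilin receptors with an olfactomedin domain, were at 65.1 and 26.1 CPM and at 104.3 and 3.15 CPM. Of 2 stathmin genes tested at 28 dpa, Stmn4 was at 7.18 and 14.0 CPM and Stmn1, which marks proliferating cells, at 8.02 and 4.42, neither past 2-fold.

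The list for procollagen processing also holds the collagen genes Col1a1, Col1a2 and Col3a1. Of its 6 genes tested, 0 were past 2-fold higher and 2 lower, Tll1 and Col1a1, with a median log2 ratio of -0.74. The collagen genes were at -1.38, -0.84 and -0.65, and Pcolce, Bmp1 and Tll1 at 0.88, -0.11 and -2.70. Pcolce, the other enhancer, was at 248.98 CPM in the unamputated library and 460.4 at 28 dpa, a 1.85-fold (1.78 to 1.92) difference. Of the proteases, Bmp1 was at 248.0 and 229.4 CPM and Tll1 at 27.0 and 3.33 CPM. Their fibrillar collagen substrates were lower at 28 dpa, with only Col1a1 past 2-fold. Col1a1 was at 0.385-fold (0.383 to 0.388), Col1a2 at 0.559-fold (0.555 to 0.562) and Col3a1 at 0.639-fold (0.636 to 0.642) the unamputated level. Of the creatine genes, the transporter Slc6a8 was at 37.5 and 41.8 CPM and Gamt, the last enzyme of creatine synthesis, at 23.2 and 20.5 CPM, while the 4 other genes were under 5 CPM in both libraries. Of 6 MAM-domain genes tested, 1 was past 2-fold lower, Ptprk, at 123.1 and 53.4 CPM.

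Over 21 sums of stromal subtypes and libraries with at least 50 cells, the genes most like each member among 9060 were ranked by Pearson r of log2(CPM + 1), as a description of sums that share libraries. Myoc was closest to Gstm1 (0.97), Dcn (0.94) and Aldh2 (0.94), and Pcolce2 to Efhd1 (0.93), Rnase4 (0.92) and Ltbp4 (0.92). Ckb was closest to Mustn1 (0.94), Anxa7 (0.92) and Rras (0.90). Stmn2 had no gene above 0.82, with Nadk (0.82), Atf5 (0.82) and Tspan17 (0.81) first, and Mamdc2 was closest to Cux1 (0.86), Grb2 (0.86) and Tbx3 (0.86). Among the members themselves, Myoc and Pcolce2 had an r of 0.86, Ckb and Pcolce2 0.85 and Myoc and Ckb 0.74. Stmn2 had an r of 0.65 with Ckb, 0.52 with Pcolce2 and 0.42 with Myoc. Mamdc2 had an r of 0.01 with Myoc, 0.05 with Ckb, 0.13 with Pcolce2 and 0.37 with Stmn2.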

How the data were processed

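The submitters' processing notes name Cell Ranger 7.1.0 and the mm10 build. The deposited matrices hold raw counts, whole numbers of UMIs per gene and barcode, and the annotation release and whether intron reads were counted are not given in the sources used here. Per the labels' protocols, dissected digit tissue was digested with trypsin and collagenase, live cells were sorted with propidium iodide, and 10x 3′ libraries were made. Of 50625 barcodes, 34947 cells were kept after filters on UMIs, genes and mitochondrial share and after doublets were marked with Scrublet at 0.8% per 1000 barcodes. Marked shares were 12.8%, 7.05%, 8.41% and 12.2% in the unamputated, 12, 17 and 28 dpa libraries, whereas the automatic threshold marked 2.03% to 4.07%. Cells were clustered jointly with scanpy 1.11.5 (Leiden resolution 1, 29 clusters) without the 5 genes, their families, sex-linked or mitochondrial genes, and classes were named from fixed marker lists, so that they may differ from the study's own.

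UMIs were summed per class and library and divided by the class total (CPM). Intervals are exact Poisson for levels, exact conditional binomial for folds and Clopper-Pearson for shares, at 95%, from scipy 1.17.1, and cover counting error only. Limits for a count of 0 use 3 counts. Log2 ratios use CPM + 1. With 1 library a group no test was run. For shares of cells, each cell was thinned to 2000 UMIs. Of 32285 gene IDs, 32158 were found in GENCODE M21. The members and lists were chosen with earlier results of these data known. Genes named besides the members are relatives in fixed family lists, markers, cluster-leading genes and the 3 genes most like each member. The calculations were tested on simulated data, and 19 alternatives were tried.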

Additional observations from a re-analysis of the deposited data

Results flagged for a closer look

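In all, 5 values were singled out because a gene was at least 2-fold higher than in the unamputated library in fibroblast-like cells and lower in another class of the same library, past the counting intervals and with at least 20 CPM in either library. Opposite directions with a smaller fibroblast-like fold, such as Mamdc2 at 28 dpa, at 1.56-fold against 0.695-fold (0.530 to 0.898) in tenocyte-like cells, were not included. In perineurial-like cells, Ckb at 17 dpa was 0.505-fold (0.419 to 0.608) the unamputated level, against 2.08-fold in fibroblast-like cells, and at 28 dpa 0.667-fold (0.543 to 0.819) against 5.75-fold. Pcolce2 in perineurial-like cells was 0.645-fold (0.555 to 0.752) at 17 dpa and 0.557-fold (0.462 to 0.671) at 28 dpa, against 3.42-fold and 7.16-fold in fibroblast-like cells. Stmn2 in vascular endothelial-like cells was 0.604-fold (0.557 to 0.655) at 28 dpa, against 10.5-fold. With 1 library a group, none of these differences was tested. The perineurial-like sub-cluster led by Luzp2 and Fgl2, which held most of the Pcolce2 and Ckb UMIs of the class in these libraries, was 62 of 110 perineurial-like cells in the unamputated library, 192 of 414 at 17 dpa and 103 of 298 at 28 dpa. In this sub-cluster Pcolce2 was at 343.7, 238.5 and 280.3 CPM and Ckb at 220.4, 116.9 and 166.4 CPM. Its Ckb was thus 0.530-fold (0.433 to 0.650) the unamputated level at 17 dpa and 0.755-fold (0.591 to 0.961) at 28 dpa.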

How the results depend on the processing

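At 28 dpa, Myoc, Ckb and Pcolce2 stayed past 2-fold under all 19 alternatives, with log2 ratios of 2.71 to 4.33, 1.23 to 2.95 and 2.41 to 3.60. Stmn2 did in 18 of 19, with 0.097 to 3.92, and in C4b and Gdf10 cells alone its fold of 1.07 (0.849 to 1.35) had no direction. Mamdc2 was at 0.39 to 1.11 and past 2-fold in 3 of 19. Values outside the counting interval are log2 ratios at 28 dpa in the order Myoc, Stmn2, Ckb and Pcolce2 unless named. They were 2.86, 3.08, 2.20 and 2.50 (Mamdc2 1.05) with a looser filter on cells, 4.33, 3.92, 2.95 and 3.28 with a stricter one, and 2.90, 2.95, 2.18 and 2.62 with no doublets removed. Leiden resolution 0.5 gave 2.71, 3.02, 2.16 and 2.41 (Mamdc2 1.1), and members kept in the clustering 2.80, 3.05, 2.20 and 2.49 (Mamdc2 1.11). Resolution 2 gave 3.34 for Myoc and 3.0 for Pcolce2. All stromal classes pooled gave 3.85, 3.84, 2.80 and 3.60, and perineurial-like cells pooled in 2.88, 3.14, 2.20 and 2.56 (Mamdc2 0.39). The mean of single-cell CPM gave 2.88, 2.31 and 3.0 for Stmn2, Ckb and Pcolce2, and equal depth 2.88, 2.25 and 3.11 (Mamdc2 0.86). A pseudocount of 5 gave 2.83 for Myoc and 3.08 for Stmn2, male-called cells 3.57 for Stmn2, and setting the median of all genes to 0 gave 2.63 for Ckb and 2.96 for Pcolce2. The unamputated subtype mix gave 3.36, 1.99 and 2.68 for Myoc, Ckb and Pcolce2 (Mamdc2 0.84), with 13 Prss35 and Spock3 cells at 28 dpa weighted as 21.9% of the class, and 3.38, 2.75, 1.95 and 2.65 (Mamdc2 0.83) without that subtype, an alternative chosen after seeing the data. C4b and Gdf10 cells alone gave 3.35, 0.097 and 1.23 for Myoc, Stmn2 and Ckb (Mamdc2 0.87), and adventitial-like cells alone 3.46, 3.89, 2.20 and 2.42 (Mamdc2 0.82).

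At 12 dpa directions were not stable, except that of Pcolce2. Myoc was at 0.083 and 0.12 under the looser and stricter filters, 0.52 with no doublets removed, 0.53 at resolution 0.5, 0.31 with members kept in, 0.67 with the unamputated mix (which rests on 1 of 21 C4b and Gdf10 cells, holding 10 Myoc UMIs) and 1.69 in adventitial-like cells. Mamdc2 was at -0.52 under the looser filter, -0.79 with no doublets removed, -0.72 at resolution 0.5, -0.92 with members kept in, -0.052 with the unamputated mix and -0.97 in adventitial-like cells. Ckb was at -0.19 at equal depth. Pcolce2 was below 0 in all 16 alternatives, at -1.25 to -0.073, but its size moved. It was 0.514-fold the unamputated level over the class, 0.920-fold with the unamputated mix and 0.861-fold (0.747 to 0.989) in adventitial-like cells. Members past 2-fold higher numbered 1 with no doublets removed, members kept in, single-cell means or equal depth, and 2 at resolution 0.5 or in adventitial-like cells. The cause of these shifts was not tested, but the fibroblast-like cells of 12 dpa numbered 242 to 844 across settings. At 17 dpa, Myoc and Pcolce2 stayed past 2-fold in all 19 alternatives, Ckb in 8 (0.45 to 1.39), Mamdc2 in 1 and Stmn2 in 0. Stmn2 ranged from -1.42 to 0.73 and was above 0 in 11. Male-called cells and C4b and Gdf10 cells alone, and the mix without the Prss35 and Spock3 subtype, were given no 12 dpa value, having under 50 cells of a kind. No paired analysis was possible because each group held 1 library.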

Other observations

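Outside fibroblast-like cells, other stromal classes also had higher levels of members at 28 dpa. Periosteal-like cells had 13.2-fold (7.17 to 25.9) more Myoc and 11.6-fold more Pcolce2 than in the unamputated library, from levels of 2.78 and 2.38 CPM. Tenocyte-like cells had 7.91-fold more Stmn2, 4.94-fold more Ckb and 10.2-fold more Pcolce2. At 28 dpa, 272 of the 305 tenocyte-like cells lay in the stromal sub-cluster led by Spp1 and Hapln1, against 7 of 480, 11 of 1392 and 33 of 253 in the unamputated, 12 and 17 dpa libraries.

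The fibroblast-like cells of 28 dpa with at least 10 Myoc UMIs had joint lining markers at a summed 1150 CPM, with Prg4, the lubricin gene, at 649.9 CPM, against 744.6 CPM summed in the cells with no Myoc UMI. Tenocyte markers summed to 966.4 against 569.4 CPM and perineurial markers to 49.5 against 273.1 CPM. Vascular endothelial markers summed to 50.8 against 11.6 CPM and keratinocyte markers to 664.2 against 354.0 CPM, and their part in these levels was not tested. At 17 dpa, the 11 fibroblast-like cells with at least 10 Stmn2 UMIs had Uchl1, another gene of neurons, at 198.4 CPM (145.3 to 264.7), against 4.32 CPM in the cells with none. In these 11 cells Tubb3 had 11 UMIs and Prph 2, Nefl, Nefm, Snap25, Elavl4 and Isl1 had 0, fibroblast markers summed to 25867 against 48773 CPM and perineurial markers to 621.2 against 69.3 CPM, mainly Crabp2, and the part of these was not tested. These values describe cells chosen by the members themselves.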
